A study of Mus musculus with 24 samples.

Results

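Spi1 encodes Pu.1, and its locus was followed through every deposited ATAC-seq file of the study, gene and upstream enhancers together. In GENCODE M21 (mm10) Spi1 lies on the plus strand of chromosome 2, from 91082390 to 91115756, and everything from 50 kb before to 20 kb after it was taken (91032390 to 91135756). Into this span fell 107 of the 549003 peaks in the 11 deposited lists, which merged into 17 regions. The 3 tables of differential sites contributed 26 more entries: 3 of 11927 sites for LT-HSCs at 3 d.p.i., 6 of 17311 for Daxx-KO KLS cells and 17 of 50928 in DKO KLS cells.

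Pu.1 is an ETS-family transcription factor that drives myeloid and early B cell development and whose dose steers stem cells and progenitors between fates. Its gene is read from a promoter next to the first coding exon and is controlled by distal elements, of which the upstream regulatory element (URE) about 14 kb before the start site is the best known. RUNX1 and Pu.1 itself are known to bind the URE, and mice that lack it have reduced Pu.1. Daxx, the gene deleted in the study, encodes a chaperone of histone H3.3.

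ATAC-seq, in which the Tn5 transposase cuts and tags open chromatin, was run on 24 libraries in 11 groups of bone marrow cells from C57BL/6 mice, all labelled Cre +/-. Long-term haematopoietic stem cells (LT-HSCs) and the common (CMP) and granulocyte-monocyte (GMP) progenitors each had 2 libraries labelled Daxx +/+ (Daxx-WT) and 2 labelled Daxx F/F (Daxx-KO), and the study's methods place them 3 weeks after tamoxifen in RosaCreER mice. LT-HSCs at 3 d.p.i. (days after induction, RosaCreER mice) had 2 Daxx-WT and 3 Daxx-KO libraries. KLS cells (Lin-, Sca-1+, c-Kit+) at 3 w.p.i. (weeks after induction) had 2 Daxx-WT, 3 Daxx-KO and 2 DKO libraries labelled Daxx F/F Pu.1 F/F. The methods name Mx1Cre, driven by an interferon-responsive promoter and induced with pI:pC, for KLS cells sorted for RNA at that time. They give no Cre line beside the ATAC-seq of KLS cells. For DKO mice they describe a cross of the Pu.1 F/F line with Daxx F/F Mx1Cre mice and induction with pI:pC. Neither Cre acts in blood cells alone, since Rosa26 is active in most tissues and Mx1Cre also deletes outside the marrow. The labels give no age and do not tie a library to an animal. The study's methods describe 2 or 3 biological replicates for its genomic assays, and p-values measure the spread between libraries. Accessibility in a sorted pool cannot tell fewer open cells from less opening per cell.

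Positions alone are given in the 6 lists from the LT-HSC, CMP and GMP groups that have no time in their labels, whereas the 5 lists of LT-HSCs at 3 d.p.i. and of KLS cells are conservative IDR lists (peaks reproducible between libraries) with a score and a fold enrichment over local background. Each list stands for 1 group and has no replicates, and the lists ranged from 22156 peaks (DKO KLS) to 70455 (Daxx-KO LT-HSCs). The sorted populations matched their labels in part. A peak lay within 1000 bp of a start site of 4 to 7 of 8 stem and progenitor markers, with Kit, Mecom, Hlf and Meis1 in all 11 lists and Ly6a in none. Of 6 GMP markers, 6 had such a peak in both GMP lists and 3 to 5 in the others. Of 14 markers of other cell types 3 to 8 had a peak, Cd3e, Cd8a, Cd4, Ncr1, Cd79a and Hbb-bt in no list.

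The deletions showed in the sites. Daxx exons 2 to 7 are flanked by loxP sites, per the study's methods. The site over exons 6 and 7 held 13.4, 7.0 and 9.41 scaled reads in the Daxx-KO KLS libraries against 88.5 and 53.9 in Daxx-WT, and 6.36 and 8.43 in the DKO libraries against 79.9 and 45.0. At 3 d.p.i. the site over exons 2 and 3 held 69.7, 108.8 and 61.2 scaled reads for the Daxx-KO LT-HSCs, under the 200.6 and 365.7 of the Daxx-WT controls. A figure legend of the study lists the 2 controls of that experiment as Daxx +/+ and Daxx +/F, but the labels call both Daxx +/+ and were followed. Scaled reads are the reads of a site divided by a constant that the authors' program gave each library.

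Spi1 exon 5, which holds 39.1% of the coding sequence, was the second mark of genotype. The site at chr2:91114801-91115800 (+18.6 kb from the start site) held 2.12 and 4.68 scaled reads in the DKO libraries, which were 2 and 5 reads, against 31.1 and 58.1 in Daxx-WT (35 and 53 reads). Scaled reads there were lower in DKO KLS cells by 3.37 ± 0.68 (SE) on the log2 scale (n = 2 against 2, limma, adjusted p = 4.9e-05). They were lower by 4.0 when every library was scaled to the same mean number of reads per window (limma adjusted p = 4.6e-05). Whether the DNA was missing or the chromatin was closed was not tested. With either Daxx-WT library left out the adjusted p was 0.18 or 1.0, so the call needs both. No site of the Daxx-KO tables touched exon 5.

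Distances below are measured from 91096678, the start of RefSeq transcript NM_011355.2, because the GENCODE gene begins 14288 bp further upstream, where 2 of its 4 transcripts start inside the URE. The URE was taken as the region with its midpoint nearest to 14 kb before this start, and its midpoint lay at -13.7 kb. In order, 6 regions lay between -63.6 and -26.5 kb in or near Rapsn, Gm13778, Psmc3 and Slc39a13, then came 6 regions before Spi1 (at -18.2, -15.4, -13.7, -12.0, -10.1 and -7.3 kb), the promoter, 3 regions inside the gene (+4.99, +16.7 and +18.6 kb) and 1 in Mybpc3 (+35.7 kb). A peak in intron 1 at +1.51 kb merged with the promoter because in Daxx-KO GMPs it overlapped the promoter peaks of other lists, and it stood alone when regions had to share 50% of the shorter peak.

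The reference sequence (GRCm38.p6, plus strand) is given, 100 bases to each side of a centre, for each element between -18.2 kb and +4.99 kb that touches no exon, since these windows show which motif letters each element carries. The centre is the median IDR summit, or on the region's midpoint where no IDR list had the peak. Capitals mark matches on either strand to motif letters. The Pu.1 motif was searched as GAGGAAGT. For RUNX factors the letters were TGTGGT. Those for GATA factors were AGATAA. No matches overlapped.
-18.2 kb element, chr2:91078528-91078728: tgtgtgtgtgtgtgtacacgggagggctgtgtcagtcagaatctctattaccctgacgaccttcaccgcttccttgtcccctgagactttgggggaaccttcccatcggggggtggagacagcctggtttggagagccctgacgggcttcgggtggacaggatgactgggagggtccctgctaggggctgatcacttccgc
-15.4 kb element, chr2:91081144-91081344: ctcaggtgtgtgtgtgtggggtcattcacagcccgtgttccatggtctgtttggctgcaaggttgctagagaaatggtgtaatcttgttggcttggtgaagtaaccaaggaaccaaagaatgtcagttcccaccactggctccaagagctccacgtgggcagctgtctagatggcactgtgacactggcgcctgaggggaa
URE, chr2:91082975-91083175: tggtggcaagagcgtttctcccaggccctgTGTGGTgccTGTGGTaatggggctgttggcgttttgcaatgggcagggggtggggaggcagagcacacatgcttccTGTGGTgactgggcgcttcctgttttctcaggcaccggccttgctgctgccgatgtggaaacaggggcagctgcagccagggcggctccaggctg
-12.0 kb element, chr2:91084574-91084774: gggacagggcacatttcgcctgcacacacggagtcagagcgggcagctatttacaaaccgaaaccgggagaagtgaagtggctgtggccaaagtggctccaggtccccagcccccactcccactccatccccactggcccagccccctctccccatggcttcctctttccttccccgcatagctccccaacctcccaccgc
-10.1 kb element, chr2:91086430-91086630: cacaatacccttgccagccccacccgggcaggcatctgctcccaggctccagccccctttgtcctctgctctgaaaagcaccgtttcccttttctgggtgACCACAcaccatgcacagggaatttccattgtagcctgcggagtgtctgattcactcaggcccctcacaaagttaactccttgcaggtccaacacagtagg
-7.3 kb element, chr2:91089140-91089340: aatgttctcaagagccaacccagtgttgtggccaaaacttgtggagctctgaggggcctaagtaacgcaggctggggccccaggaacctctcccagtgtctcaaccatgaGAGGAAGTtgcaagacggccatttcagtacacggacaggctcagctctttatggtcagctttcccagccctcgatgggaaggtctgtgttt
intron 1 element, chr2:91098272-91098472: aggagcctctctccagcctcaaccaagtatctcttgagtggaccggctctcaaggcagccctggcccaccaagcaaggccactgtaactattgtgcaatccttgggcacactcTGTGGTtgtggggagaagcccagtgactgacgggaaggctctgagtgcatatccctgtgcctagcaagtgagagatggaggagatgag
intron 2 element, chr2:91101479-91101679: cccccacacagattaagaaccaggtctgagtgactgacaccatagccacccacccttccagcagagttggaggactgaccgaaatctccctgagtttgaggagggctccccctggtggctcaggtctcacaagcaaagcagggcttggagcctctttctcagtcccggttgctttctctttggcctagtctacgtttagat

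The URE window held 3 RUNX matches, all on the plus strand, at -13.673, -13.664 and -13.597 kb. Over the same windows of all 100446 merged regions, 22.8% held at least 1 RUNX match and 0.458% held 3 or more, a count looked at after the URE was seen. Among the other windows printed, the -10.1 kb and intron 1 elements held 1 RUNX match each. The only Pu.1 match, at -7.428 kb, was in the -7.3 kb element, and 7.78% of all windows held one. None of the 8 windows held a GATA match (9.19% of all). These are matches of letters, and other forms of each motif were not searched.

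**Figure D1:**
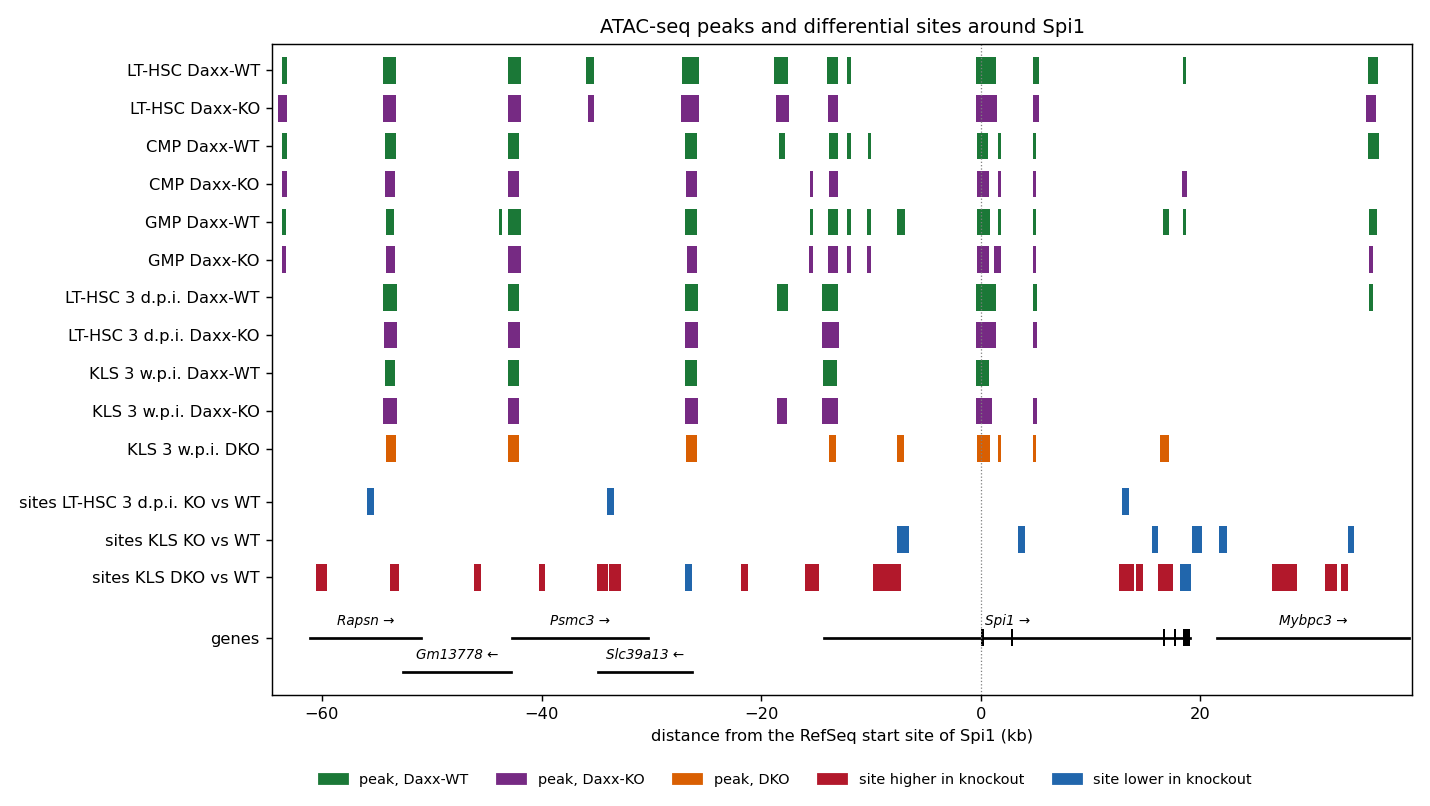
Peaks of the 11 lists (bars coloured by genotype) and sites of the 3 tables (red, higher in the knockout; blue, lower) by distance from the RefSeq start site of Spi1 in kb, with genes below and Spi1 exons as black boxes; arrows give the strand. The URE at -13.7 kb and the promoter were peaks in all 11 lists, and no site overlapped either.

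The URE and the promoter were open in every population and genotype. They were among 5 of the 17 regions found in all 11 lists, the others being the promoters shared by Psmc3 and Gm13778 (-42.5 kb) and of Slc39a13 (-26.5 kb) and a region within Rapsn (-53.8 kb). Over the genome 15% of merged regions were found in all 11. No site of any table touched the URE or the promoter peak, where 4.63% (LT-HSC table), 6.26% (Daxx-KO KLS) and 20.3% (DKO KLS) of regions found in all lists were touched by a site. A region without a listed site is one that the authors' threshold left out, not one shown to be equal between genotypes.

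Width of the URE hardly differed between Daxx-KO and Daxx-WT lists. It was 980 bp in Daxx-WT and 1001 bp in Daxx-KO LT-HSCs, 803 and 848 bp in CMPs, and 933 and 919 bp in GMPs. The IDR lists gave 1508 and 1511 bp for LT-HSCs and 1324 and 1404 bp for KLS cells. These 5 log2 ratios of Daxx-KO over Daxx-WT ran from -0.02 to 0.08, against medians over all peaks shared by the same lists of -0.06 to 0.11.

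The DKO list was the exception, with a URE peak of 671 bp. Its log2 width ratio to Daxx-WT KLS cells was -0.98, at the 5.28 percentile of 16747 shared peaks, whose median was -0.18. Most of the difference lay on the upstream side. The URE peak began at 91082280 and 91082252 in Daxx-WT and Daxx-KO KLS cells, where weaker summits of 1.5 to 1.8-fold enrichment lay between -14.3 and -13.96 kb, and at 91082862 in DKO cells, which had a single summit. In the 6 lists of positions the peak began between 91082709 and 91082831, so a short upstream side was not particular to DKO cells. The main summit stayed in place, between 91083059 and 91083080 in all 5 IDR lists. Its fold enrichment was 5.29 in Daxx-WT, 6.45 in Daxx-KO and 4.61 in DKO KLS cells, the 41.9, 52.7 and 43.0 percentile of each list, and 6.52 and 7.5 in the Daxx-WT and Daxx-KO lists of 3 d.p.i. With 1 list per group, these differences have no replicate check.

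The promoter peak was widest in LT-HSCs. It spanned 1845 and 1924 bp in Daxx-WT and Daxx-KO LT-HSCs without a time label and 1824 and 1860 bp at 3 d.p.i., but 1044 and 1093 bp in CMPs and 1115 and 1040 bp in GMPs. From LT-HSCs to CMPs the log2 ratio was -0.82 in both genotypes, at the 12.9 (Daxx-WT) and 21.5 (Daxx-KO) percentile of shared peaks, while for the URE it was -0.29 and -0.24. In KLS cells the promoter peak measured 1154 bp in Daxx-WT, 1422 bp in Daxx-KO and 1168 bp in DKO. Its fold enrichment was 5.75, 8.16 and 5.52 in that order, the 51.3, 74.2 and 60.2 percentile of each list.

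**Figure D2:**
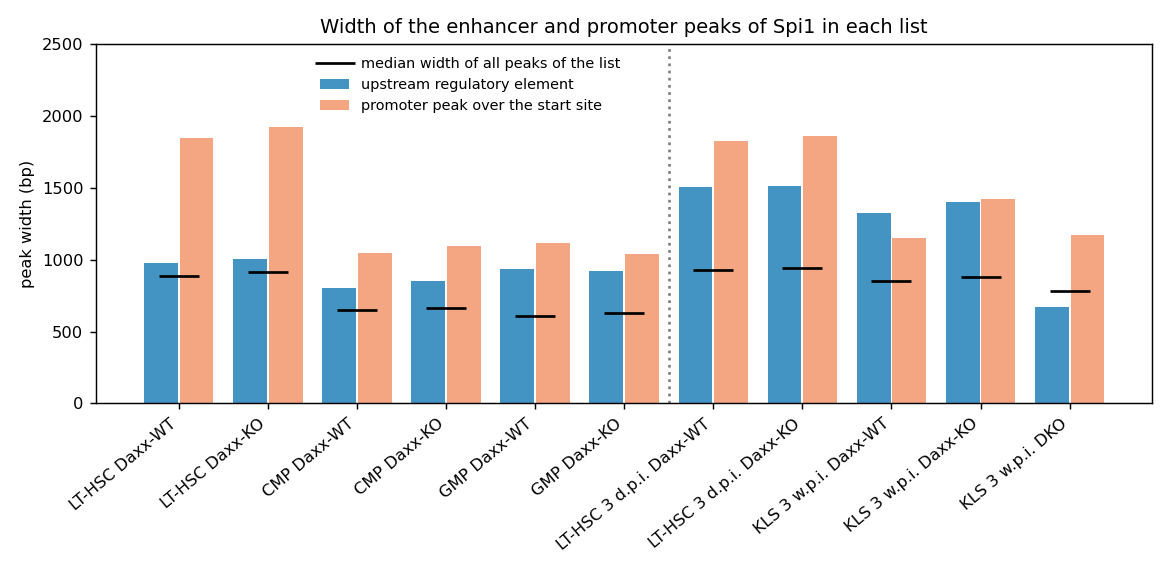
Width in bp of the URE peak (blue) and of the promoter peak over the start site (orange) in each of the 11 lists, with the median width of all peaks of the list as a black line; the dotted line parts lists of positions (left) from IDR lists (right). The URE is wider than the list's median everywhere except in DKO KLS cells (671 bp against a median of 785 bp).

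Smaller elements before the gene were peaks in some lists only, and differed both between populations and between genotypes of 1 population. The -18.2 kb element was a peak in both LT-HSC lists without a time label (1230 and 1159 bp), in Daxx-WT CMPs (605 bp), in the Daxx-WT list of 3 d.p.i. and in the Daxx-KO KLS list, and in neither GMP list. In its IDR lists it was weak, with 2.72 and 2.98-fold enrichment, the 1.31 and 1.48 percentile. By contrast, the -15.4 kb element was a peak only in Daxx-KO CMPs (282 bp) and in Daxx-WT and Daxx-KO GMPs (354 and 386 bp). The -12.0 kb element was a peak in Daxx-WT LT-HSCs, CMPs and GMPs (318, 360 and 369 bp) and in Daxx-KO GMPs (346 bp), and the -10.1 kb element in Daxx-WT CMPs and in both GMP lists (315 to 358 bp). No IDR list held the -15.4, -12.0 or -10.1 kb element. The study's methods describe an additional single-read run for CMPs and GMPs alone, whose part in such differences between populations was not tested.

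GMPs, in which Pu.1 is needed for the monocyte path, had the most peaks at Spi1: 16 in Daxx-WT, more than 96.7% of the 21910 protein coding genes had in spans of the same kind, and 12 in Daxx-KO. LT-HSCs had 12 and 10, and CMPs 12 and 10. At the -7.3 kb element only Daxx-WT GMPs (641 bp) and DKO KLS cells (631 bp, 5.29-fold enrichment) had a peak, and the same held at +16.7 kb, which includes exon 3 (609 bp, and 833 bp with 4.91-fold enrichment). The intron 1 element was a peak in all 4 CMP and GMP lists and in DKO KLS cells (318 bp, 4.17-fold), but in no LT-HSC list, where the promoter peak reached to 91098051 or beyond. The intron 2 element at +4.99 kb was a peak in 10 of 11 lists, all but Daxx-WT KLS cells, with 3.03 to 4.87-fold enrichment in 4 IDR lists. Exon 5 carried a narrow peak in Daxx-WT LT-HSCs (280 bp), Daxx-WT GMPs (312 bp) and Daxx-KO CMPs (395 bp).

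Outside KLS cells, Daxx-KO lists held fewer peaks at Spi1 than their Daxx-WT lists. In CMPs, 4 of 12 Daxx-WT peaks had no Daxx-KO peak, where 28.5% of all Daxx-WT CMP peaks had none. In GMPs it was 4 of 16, where 27.6% had none, in LT-HSCs 2 of 12 (6.78%) and at 3 d.p.i. 2 of 8 (8.68%). Peaks of the Daxx-KO list alone numbered 2 of 10 in CMPs (6.26% of all), 0 of 12 in GMPs (4.55%), 0 of 10 in LT-HSCs (13.9%) and 0 of 6 at 3 d.p.i. (24.1%). KLS cells had the reverse order: 2 of 7 Daxx-KO peaks (-18.2 and +4.99 kb) had no Daxx-WT peak (31.8% of all) and 0 of 5 Daxx-WT peaks lacked a Daxx-KO peak (8.06%). Only 1 region, at -43.7 kb in Daxx-WT GMPs, was found in a single list (18.3% of all regions). The longer list of each pair held more peaks at Spi1 in CMPs, GMPs and KLS cells but not in LT-HSCs at either time.

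DKO KLS cells had 9 peaks at Spi1 from the shortest list, more than 98.2% of protein coding genes in it. Of these, 4 had no Daxx-WT KLS peak (21.4% of all DKO peaks), at -7.3 kb, in introns 1 and 2 and at +16.7 kb. All 4 overlapped a peak of Daxx-WT GMPs, as did 71.8% of all such DKO peaks and 91.4% of all DKO peaks. No Daxx-WT KLS peak at Spi1 lacked a DKO peak (0 of 5, where 48.4% of all did), and of the Daxx-KO KLS peaks only the -18.2 kb element did (1 of 7, 59.4% of all). Against the Daxx-KO list, 3 of 9 DKO peaks stood alone (16.8% of all). When the 5 IDR lists were cut to the 22156 strongest peaks of each, the -18.2 kb, intron 2 and +35.7 kb elements were lost from every other list that had them. The DKO list set this length and was not cut, so its 9 peaks could not be lost at this setting. With an IDR score of at least 830, the intron 2 element was lost from the DKO list. The -18.2 kb element was then lost from the Daxx-WT list of 3 d.p.i. and the Daxx-KO KLS list. The +35.7 kb element was lost from the Daxx-WT list of 3 d.p.i.

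The 3 sites near Spi1 in the table of 3 d.p.i. had fewer reads in Daxx-KO LT-HSCs. The site in intron 2 (+13.2 kb, chr2:91109551-91110150) held 12.9, 8.59 and 12.7 scaled reads in Daxx-KO, below the 30.4 and 24.4 of Daxx-WT (log2 fold change -1.21 ± 0.42 SE, limma adjusted p = 0.20). The site in Rapsn, the gene of a protein that clusters acetylcholine receptors (-55.6 kb), held 8.26, 7.64 and 15.8 against 29.3 and 26.3 (-1.38 ± 0.45, adjusted p = 0.13). Where Psmc3, a proteasome subunit gene, and Slc39a13, a zinc transporter gene, overlap (-33.7 kb), the reads were 16.5, 18.1 and 19.0 against 40.6 and 32.8 (-0.99 ± 0.30, adjusted p = 0.088). Every Daxx-KO library lay under both Daxx-WT libraries at all 3, as at 70.7% of all sites in the table. None of the 3 passed limma after adjustment, where 25.8% of all sites did as lower, and all 3 had an unadjusted p under 0.05 (70.8% of all as lower). None touched a peak of any list.

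In KLS cells at 3 w.p.i. all 6 sites were lower in the Daxx-KO libraries. Before the gene, the site over the -7.3 kb element (chr2:91089001-91090100) held 24.5, 33.2 and 35.8 scaled reads in the 3 knockout libraries against 37.4 and 105.5 in the controls (log2 fold change -1.01 ± 0.32, adjusted p = 0.15). The 2 control libraries thus stood further apart than the lower of them stood from Daxx-KO. Without Daxx-WT replicate 1 the log2 fold change was -1.74 (limma adjusted p = 0.0026), and without Daxx-WT replicate 2 it was -0.27 (adjusted p = 1.0). In intron 2 the site at +3.72 kb held 16.7, 14 and 14.1 against 31.0 and 33.2 (-1.06 ± 0.33, adjusted p = 0.13). Further along the same intron, at +15.9 kb, reads were 13.4, 13.1 and 6.58 against 23.7 and 34.4 (-1.36 ± 0.40, adjusted p = 0.12).

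Just past the gene end, the site at +19.7 kb (chr2:91115901-91116800) had the lowest adjusted p of the 6. It held 17.8, 10.5 and 14.1 scaled reads against 35.6 and 41.3 (-1.41 ± 0.34, adjusted p = 0.070). The other two lay in Mybpc3, the gene of cardiac myosin binding protein C. At +22 kb the reads were 11.1, 9.62 and 10.4 against 21.9 and 28.7 (-1.20 ± 0.40, adjusted p = 0.16), and at +33.7 kb they were 14.5, 7.87 and 6.58 against 28.3 and 22.9 (-1.39 ± 0.43, adjusted p = 0.14). At all 6 the groups did not overlap, as at 80.8% of all sites as lower. None of the 6 passed limma after adjustment (1.16% of all sites did as lower), and all had an unadjusted p under 0.05 (80.9% of all as lower). Their median log2 fold change was -1.28, and that of all sites in the table -1.27. No site touched the URE or the promoter, where fold enrichment was higher in the Daxx-KO KLS list (6.45 against 5.29, and 8.16 against 5.75). The median over all peaks was also higher in that list (6.28 against 5.67). Fold enrichment over local background and scaled reads are unlike measures, taken here at different places.

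Scaling moved with these values. The Daxx-KO KLS libraries had 9.03, 3.98 and 5.27 scaled reads per window on average, and the Daxx-WT libraries 7.60 and 8.61. At an equal mean per window the median of the 6 sites was -0.81 with 3 unadjusted p under 0.05, the groups overlapped at -7.13 and +15.9 kb, and the median of all sites was -0.81. At 3 d.p.i. the LT-HSC means per window were 8.71, 4.01 and 10.1 for Daxx-KO against 10.8 and 7.41, and under equal means the site at -33.7 kb overlapped between the groups. The shares of all sites with such p-values or overlaps were not counted at equal means. The part of sequencing depth and background in the lower reads was not tested.

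**Figure D3:**
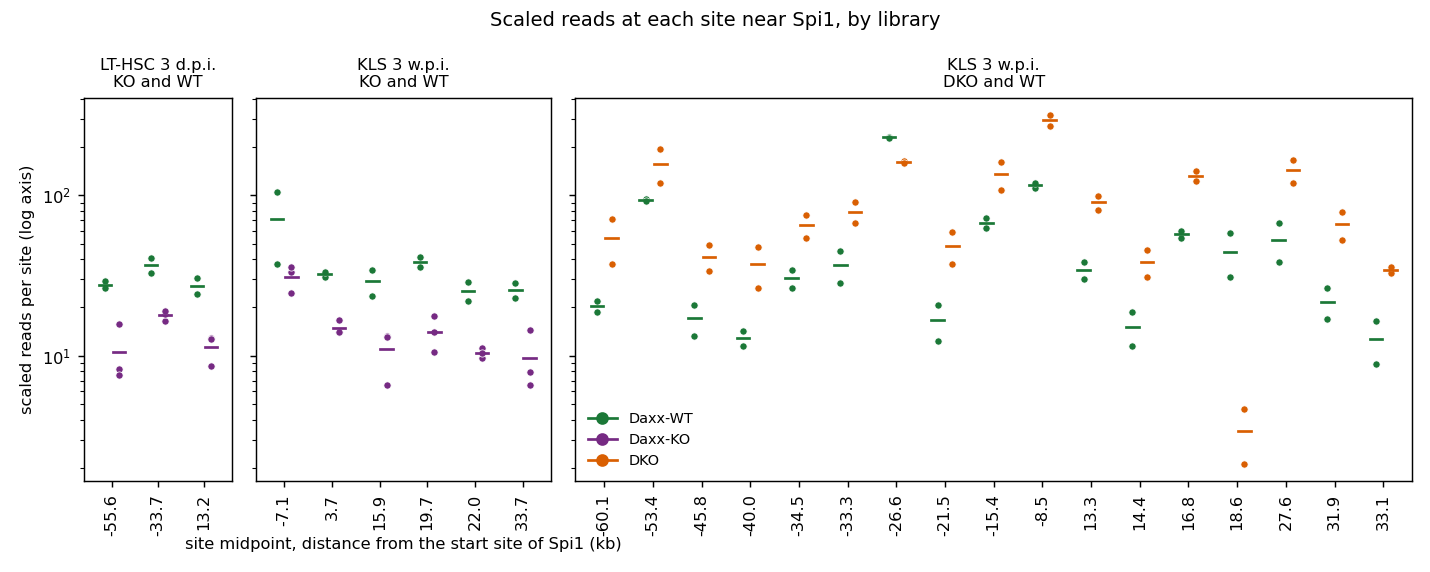
Scaled reads at each site near Spi1 (log axis), 1 point per library and a line at each group's mean, by site midpoint in kb from the start site; green, Daxx-WT; purple, Daxx-KO; orange, DKO. Daxx-KO points lie under the Daxx-WT points at all 9 sites, and DKO points lie above them at 15 of 17 and far under them at exon 5 (+18.6 kb).

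DKO KLS cells showed the opposite at most sites: 15 of the 17 sites were higher than in Daxx-WT and 2 lower. Of the 17, 14 were called higher (70.9% of all sites were) and 1 lower (25.1%). The widest of the 17 reached from past the -10.1 kb element into the -7.3 kb element (chr2:91086901-91089400) and held 314.9 and 270.8 scaled reads in DKO against 110.9 and 119.6 in Daxx-WT, a rise of 1.33 ± 0.25 (SE) on the log2 scale (adjusted p = 7.3e-06). Upstream of the URE, over the -15.4 kb element, 162.2 and 107.7 stood against 62.1 and 72.4 (0.97 ± 0.26, adjusted p = 0.0043). At -21.5 kb, between Slc39a13 and Spi1, the reads were 37.1 and 59.0 against 12.4 and 20.8 (1.48 ± 0.36, adjusted p = 0.0014).

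Inside the gene, 3 sites before exon 5 rose. At +13.3 kb in intron 2 the DKO libraries held 99.7 and 81.5 scaled reads against 30.2 and 38.4 (1.38 ± 0.29, adjusted p = 0.00012). At +14.4 kb they held 30.8 and 45.9 against 11.5 and 18.7 (1.30 ± 0.40, adjusted p = 0.014). Over exon 3 and both its flanks (+16.8 kb), where DKO cells also had a peak, they held 142.1 and 122.7 against 54.1 and 60.3 (1.19 ± 0.27, adjusted p = 0.00032). Exon 5 thus lost reads while exon 3, further upstream in the same gene, gained them at this scaling.

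The other 10 sites lay in the neighbouring genes. In Rapsn the DKO libraries held 37.1 and 71.2 scaled reads at -60.1 kb against 18.6 and 21.9 in Daxx-WT, and 195.1 and 119.9 against 95 and 92.1 at -53.4 kb, the 1 higher site that did not pass the test (log2 fold change 0.70 ± 0.25, adjusted p = 0.051). Without DKO replicate 2 this site passed (1.05, adjusted p = 0.0016), without DKO replicate 1 it was 0.36, and the site at -60.1 kb did not pass without DKO replicate 2 (0.84, adjusted p = 0.53). At -45.8 kb in Gm13778, an unnamed noncoding transcript, they held 33.9 and 48.7 against 13.3 and 20.8. In Psmc3 they held 26.5 and 47.8 against 11.5 and 14.3 at -40.0 kb, 54.1 and 75.9 against 26.6 and 34.0 at -34.5 kb, and 66.8 and 90.9 against 28.4 and 45.0 at -33.3 kb. In Mybpc3 they held 119.8 and 166.8 against 38.2 and 66.9 at +27.6 kb, 53.0 and 78.7 against 16.9 and 26.3 at +31.9 kb, and 32.9 and 35.6 against 8.87 and 16.5 at +33.1 kb. The Slc39a13 promoter (-26.6 kb) was the second lower site, with 164.4 and 158.3 against 230.7 and 228.1 (-0.51 ± 0.25, adjusted p = 0.34). At 15 of 17 sites both DKO libraries were above both Daxx-WT libraries (72.1% of all sites), and at the other two both were under them (27.8%).

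These gains depended on the scaling. After the authors' constants the DKO libraries had 10.6 and 15.0 reads per window on average and the Daxx-WT libraries 7.39 and 8.19. At an equal mean per window the median of the 17 sites went from 1.3 to 0.63 and that of all sites from 1.29 to 0.62, and exon 5 alone of the 17 stayed past the threshold (11.3% of all sites were then called higher and 25.2% lower). The site that reached into the -7.3 kb element was then 0.64 ± 0.46 (adjusted p = 1.0), with 309.8 and 189.1 reads against 156.8 and 152.5. All 15 higher sites kept their sign, but the groups overlapped at -53.4 and -15.4 kb. The share of all sites with such an overlap was not counted. The part of background reads in the gains was not tested.

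**Figure D4:**
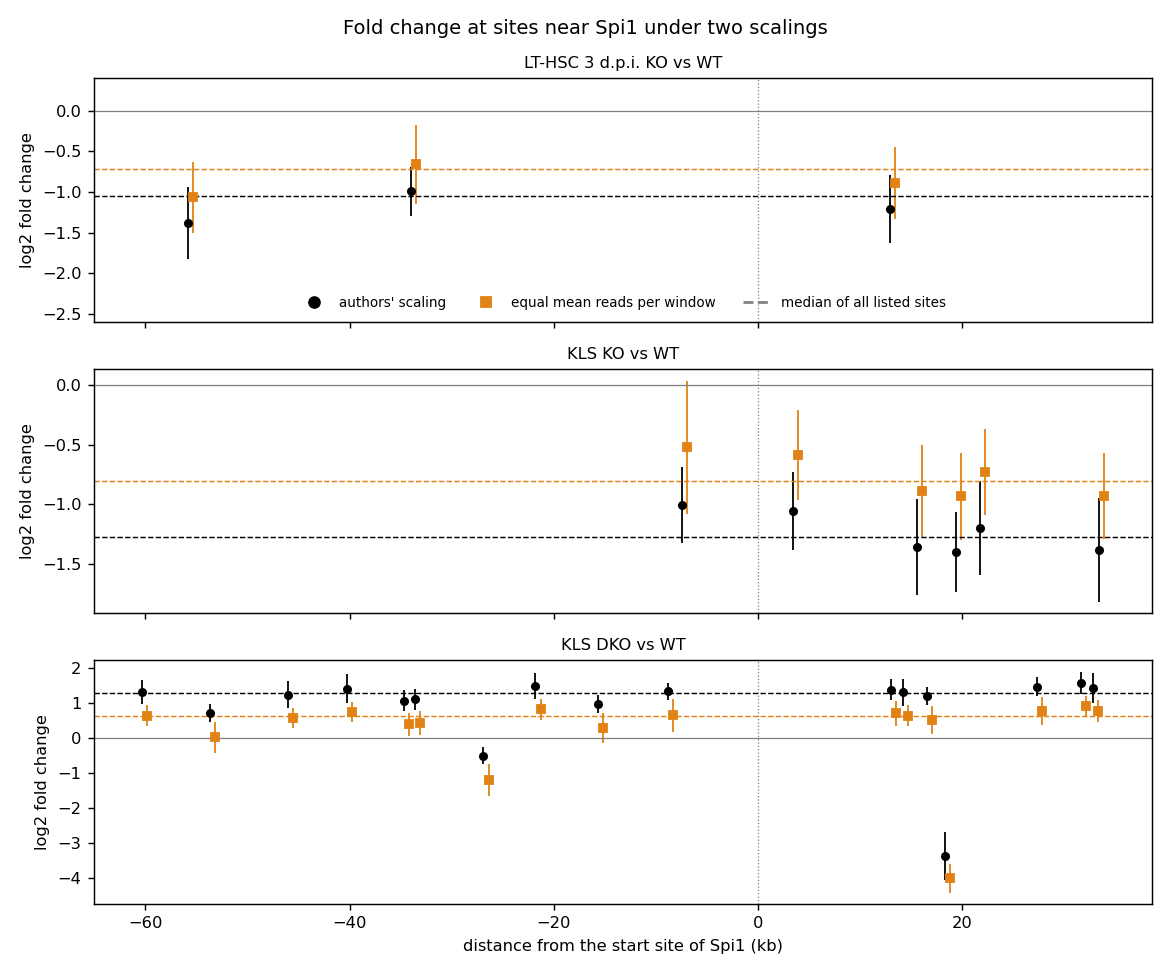
Log2 fold change against Daxx-WT with SE at each site near Spi1, by distance from the start site in kb, with the authors' scaling (black circles) and with equal mean reads per window (orange squares); dashed lines give the median of all sites listed in each table. In DKO cells exon 5 (+18.6 kb, -3.37 and -4.0) lies far under both dashed lines, and the site at -26.6 kb lies under 0. The sites at -53.4, -45.8, -34.5, -33.3, -15.4 and +16.8 kb lie between 0 and the lines. The lowest of these are at -53.4 kb (0.70 and 0.01) and -15.4 kb (0.97 and 0.28).

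Some stretches had a negative fold change in Daxx-KO, none past the threshold, and a rise in DKO cells, in tables where 29.1% (LT-HSCs), 19.1% (Daxx-KO KLS) and 72.1% (DKO KLS) of all sites were higher than in Daxx-WT. The intron 2 site of the 3 d.p.i. table (-1.21) lay wholly inside the DKO site at +13.3 kb (1.38), and the site at -33.7 kb (-0.99) shared 400 bp with the DKO site at -33.3 kb (1.10). In KLS cells the site over the -7.3 kb element (-1.01) shared 400 bp with the DKO site before it (1.33), and that at +15.9 kb (-1.36) shared 50 bp with the DKO site over exon 3 (1.19). None of these DKO rises passed at an equal mean per window. Both KLS comparisons use the same Daxx-WT libraries, and the difference between Daxx-KO and DKO was not tested.

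Spi1 collected many sites for a gene. Its 6 lower sites in Daxx-KO KLS cells were more than 98.1% of protein coding genes had in spans of the same kind, and its 15 higher sites in DKO cells more than 98.2%, with medians of 1 and 2 sites per gene. For the LT-HSC table its 3 lower sites exceeded 92.9%. Of all protein coding genes 56% had a lower site in Daxx-KO KLS cells, 68.3% a higher site in DKO cells and 38.2% a lower site at 3 d.p.i.

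Of the genes that act with Pu.1, 13 factors known to regulate Spi1 and 20 partners or targets were examined for sites within the gene or 5 kb before it. In DKO KLS cells, 17 of the 33 genes had a lower site (27.4% of protein coding genes did), called in 14 (24.4%), and 20 a higher site (43.5%), called in 19 (43%). Flt3, the receptor of multipotent and lymphoid progenitors, had 5 sites, and all 5 fell, the strongest from 102.2 ± 17.4 to 37.0 ± 17.9 scaled reads (SD, n = 2 and 2, log2 fold change -1.51, limma adjusted p = 1.3e-05). Irf8, a partner of Pu.1 in monocytes, had 3 sites that fell by 0.81 to 1.26 on the log2 scale, and 1 that rose. Gata2, a stem cell factor, had 4 sites, and all fell. For Irf4, another partner, the single site fell by 1.16. At Csf1r 3 sites fell and 1 rose. Its strongest fall was from 369.3 ± 7.33 to 136.3 ± 35.1 scaled reads (log2 fold change -1.45, limma adjusted p = 5.8e-07). Itgam had 2 sites that fell and 3 that rose, Ncf1 had 1 and 5, and the single site of Tlr4 fell.

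Mpo, the myeloperoxidase of granules, had 6 sites in DKO cells, and all rose, by 1.01 to 1.40. Cebpe, a factor of granulocyte maturation, had 4 that rose (0.74 to 1.33). At an equal mean per window 14 genes had a site called lower and 3, Elf1, Ets1 and Il7r, a site called higher. Of all sites 25.2% were then called lower and 11.3% higher, and the share of all genes was not counted at this scaling. The 14 genes called lower were Runx1, Cebpb, Elf1, Gata2, Myb, Ikzf1, Tal1, Irf8, Irf4, Csf1r, Itgam, Flt3, Tlr4 and Ncf1. No site of Mpo or Cebpe passed at this scaling. Longer genes have more room for sites, so the counts are not comparable gene by gene.

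In Daxx-KO KLS cells 15 of the 33 genes had a lower site (30.6% of protein coding genes did) and 0 a lower site that passed limma (0.571%). A higher site was found in 8 (7.29%), and 1 passed (0.794%). It lay at Cybb, the NADPH oxidase subunit of phagocytes, where reads rose from 11.2 ± 0.36 to 41.7 ± 9.43 (SD, n = 2 and 3, log2 fold change 1.78 ± 0.31 SE, limma adjusted p = 0.015). It also passed at an equal mean per window (limma adjusted p = 0.039). Without Daxx-KO replicate 1, without Daxx-KO replicate 3, or without trend, no site of the Daxx-KO KLS comparison passed, that at Cybb included. At 3 d.p.i. 6 genes had a lower site in LT-HSCs (18.4%), and 2 passed (8.23% of genes had a called one), at Runx1 and Elf1. A higher site was found in 11 (8.85%), and 4 passed (5.6%), at Runx1, Ets1, Gata1 and Tlr4. Runx1, the main activator at the URE, had 8 sites, 5 higher and 3 lower. Of these, 3 called sites rose by 0.71 to 1.02 and 1 called site fell by 1.44. None of these LT-HSC calls passed at an equal mean per window.

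Genes most like Spi1 were sought by the share of a list's peak bases that lay in each gene's own span. The share at Spi1 ran from 156.6 bases per Mb of peaks in Daxx-KO LT-HSCs to 370.0 in DKO KLS cells, and from 156.6 to 238.6 without the DKO list. Of 15378 genes with peaks in all 11 lists, Gnpat (Pearson r = 0.98, Spearman rho 0.84), Nkapd1 (0.98, 0.88), C87436 (0.98, 0.90), 2810004N23Rik (0.98, 0.82) and Wtap (0.97, 0.88) were nearest. Gnpat and 2810004N23Rik both lie on chromosome 8 and had the same share in several lists, such as 291.1 in DKO and 113.2 in Daxx-WT KLS cells. Overlap of spans among the 5 genes was not excluded, so these may not be separate cases. The 11 lists differ in length and processing, and the share of each of the 5 genes was also highest in the DKO list.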

How the data were processed

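ATAC-seq peaks and differential sites were taken as deposited for 24 libraries (groups from the titles). Builds and tools in the submitters' processing notes are mm10, CASAVA 1.8.4, cutadapt 1.13, STAR 2.5.3 and bedtools. The peak caller is not given in the sources used here. The authors deposited 6 lists of positions and 5 conservative IDR lists with a score and a fold enrichment (ratio to local background) per summit. Intervals repeated for several summits were counted once, with the highest fold. The authors' 3 site tables were made with diffReps 1.55.6 (windows of 600 bp moved by 50 bp, p-value under 0.0001, per the file headers) and hold the scaled reads of each library and their group means, a deposited signal. Their fold changes and p-values were not used. The deposited list files and tables hold no other depth than the mean reads per window of each library.

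Scaled reads were tested in limma 3.58.1 (R 4.3.3, two-sided, with trend, all sites of a table, log2(value + 1), which understates changes at low reads) with Benjamini-Hochberg adjustment over all windows tested (413247, 407030 and 446463), at 0.05, and the fit was checked on simulated data. The authors chose the sites on the same libraries, so p-values are not independent of that choice. Multiplied back by its constant, every value below 20 reads was within 0.15 of a whole number, but a count model was not used. Peaks merged at 1 bp of overlap. The region rule, URE rule, likeness rule and gene lists were chosen with earlier results of these data known: all peaks and sites of the span are given, and the 5 genes nearest by Pearson r. The start site was chosen after the annotation was seen. Titles number the replicates of KLS groups: deviations of same-numbered libraries correlated at 0.0084 and 0.052 (Daxx-KO) and -0.0031 (DKO), so numbers were not used as pairs. Sequences come from GRCm38.p6. The table of RefSeq promoters used here has no entry for Spi1. Per-sample columns of other series numbered 0.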

Additional observations from a re-analysis of the deposited data

How the results depend on the processing

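Every one of the 26 sites kept its direction under every alternative run for it (a pseudocount of 0.5 or 5, equal mean reads per window, a mean of at least 10 scaled reads, adjustment over the listed sites, no trend, and each library left out). The number past the threshold moved more. In LT-HSCs at 3 d.p.i. it was 0 of 3, but 2 with a pseudocount of 5 and 3 when adjusted over the listed sites. With single libraries left out it stayed at 0. In Daxx-KO KLS cells it was 0 of 6, but 4 with a pseudocount of 5 and 6 when adjusted over the listed sites, and 0 to 1 with single libraries left out. In DKO KLS cells it was 15 of 17, but 1 at equal mean reads per window, and 5 to 13 with single libraries left out (5 without Daxx-WT replicate 1 and 8 without DKO replicate 2). The fold change at exon 5 ranged from -3.81 to -2.93 with single libraries left out. With the replicate number as a block, which the data gave no ground for, 0 of 6 Daxx-KO and 15 of 17 DKO sites passed. For LT-HSCs no paired analysis was possible because the libraries of that table carry no replicate numbers that match the titles. Regions numbered 17, or 11 within 20 kb before to the end of the gene, of which 3 rather than 5 were in every list. With distances from the GENCODE gene start, chosen after seeing the annotation, the URE rule would have picked the Slc39a13 promoter. Within 50 kb before to 20 kb after each gene, pathway genes with a lower site went from 6 to 16 for the LT-HSC table. All protein coding genes with one went from 18.4% to 38.2%. In Daxx-KO KLS cells pathway genes with a lower site went from 15 to 26, and all protein coding genes from 30.6% to 56%. Pathway genes with a higher site went from 11 to 17 for the LT-HSC table, and the share of all genes in the wider span is not given for these. Over whole tables the sites past the threshold numbered 5366 in LT-HSCs (9186 with a pseudocount of 5, 134 at equal mean reads, 11819 adjusted over the listed sites, 0 without trend), 593 in Daxx-KO KLS cells (11257, 115, 17267 and 0 in that order, and 1704 with the replicate block) and 48842 in DKO KLS cells (18577 at equal mean reads). With single libraries left out these counts ran from 659 to 4847, from 0 (without Daxx-KO replicate 1 or 3) to 530, and from 13739 to 31079, so the shares of all sites called, such as 25.8%, 1.16% and 70.9%, hold for the full set of libraries.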
